A study of Mus musculus with 28 samples.

Results

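Skin of 7 mice was compared, 3 recipients lacking both Rag2 and Il4ra against 4 recipients lacking Rag2 only, all of BALB/c background and all given BALB/c spleen cells. These 7 were every mouse of the series that received syngeneic cells and had one of these 2 genotypes, out of 24 mice on 28 arrays, and they were measured on 10 arrays. Skin was taken 2 weeks after the transfer, so this is the baseline of a model of chronic graft-versus-host disease, without the B10.D2 donor cells that cause it. Every recipient lacked Rag2 and could form no T or B cells of its own, while the label of the donor names no deleted gene, so cells from the donor may carry intact Il4ra, Il4 and Il13. The labels gave no age or sex. They numbered each mouse: 4535, 5717 and 5719 were the Il4ra-deficient animals, and 5700, 5702, 5703 and 6153 the Rag2-only ones. Mouse 5702 had 3 arrays and mouse 5703 had 2, which were averaged, so n counts animals.

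Il4ra encodes the chain shared by the receptors of interleukin 4 and interleukin 13. Paired with the common gamma chain it binds IL-4, and paired with IL-13Rα1 it binds IL-4 or IL-13. Both forms act through Janus kinases and the transcription factor STAT6, and in skin they are known for type 2 inflammation, alternative activation of macrophages, and induction of chemokines such as those for eosinophils. The comparison asks what loss of this receptor chain does to skin that is not under attack by foreign donor cells.

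Each value below is the log2 ratio of skin RNA to a pooled reference RNA, so a difference of 1 between mice is a 2-fold difference. Base 2 was read from the deposited values and is not stated in the labels. Ratios recurring among dim probes lay at the spacings of log2 in 53, 38 and 30 of 5320 pairs of values within 0.0015, against 15, 11 and 13 for base 10 and 3, 10 and 9 for natural logarithms. A window of 0.0051 did not separate base 2 (59, 58 and 52 pairs) from base 10 (38, 62 and 42). Without spot intensities, detection of a transcript cannot be read from a ratio close to 0. On the 10 arrays, 40.9% to 52.3% of nonzero values were shared by at least 30 probes of the same array. A recurring ratio away from 0 may therefore also come from a dim probe. All 16 epidermal genes measured lay above 0 in these mice (median 5.41), as did 1 of 15 genes of dividing and embryonic cells (median -3.06). The share of probes with an exact 0, read as not measured, ran from 18% to 34% of an array in Rag2-only mice. It was 27.9%, 36.8% and 7.13% in mice 4535, 5717 and 5719.

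No gene passed the test between the genotypes. Of 14822 genes tested with limma, 0 had an adjusted p under 0.05 (0% called), and the smallest adjusted p was 0.235. At an unadjusted p under 0.05 there were 432 genes (2.91%), of which 256 lay lower (1.73%) and 176 higher (1.19%) in Il4ra-deficient skin. Refits with other settings called between 0 and 3 genes, and 18 of 22 called 0. Differences below 0 made up 52.1% of the genes. Of 12506 genes measured in all 7 mice, the groups did not overlap in 380 that lay lower (3.04%) and 305 that lay higher (2.44%), together 5.48%. The median difference over all genes was -0.01, and the median standard error was 0.24. For 10940 genes (73.8%) the 95% interval of the difference, which is not corrected for the number of genes, lay within -1 and 1, so that a 2-fold difference fell outside it. For the rest, differences of that size were not resolved with 3 and 4 animals. Genes with a difference of at least 1 in either direction numbered 139 (0.938%), 78 lower and 61 higher, and only 44 of them were measured in all 7 mice.

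Mice of opposite genotype were no farther apart than mice of the same genotype. The median absolute difference between 2 mice, over 12517 genes, ran from 0.19 to 0.35 in the 6 pairs of Rag2-only mice (median 0.26). It was 0.21 to 0.25 in the 3 pairs of Il4ra-deficient mice (median 0.24) and 0.18 to 0.32 in the 12 pairs across genotypes (median 0.24). Mouse numbers begin with 45, 57 or 61 here, and nothing in the labels says what these number series mean. Series 57 held 3 Rag2-only and 2 Il4ra-deficient mice, whereas 6153 was the only Rag2-only mouse of series 61 and 4535 the only Il4ra-deficient one of series 45.

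**Figure D1:**
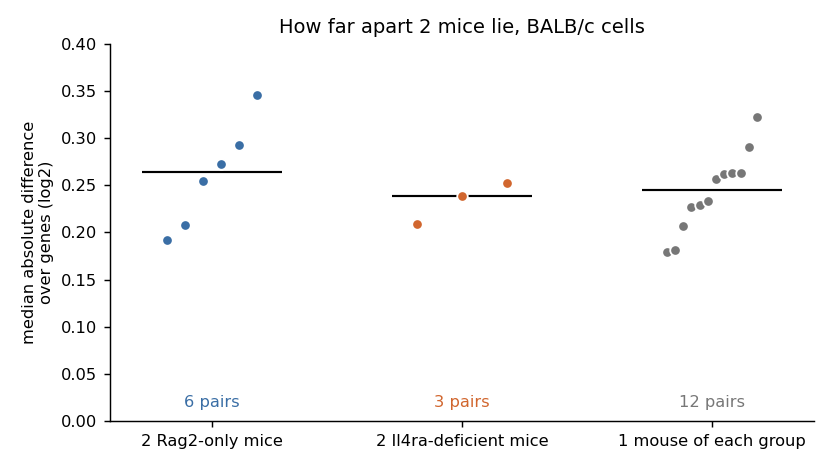
Median absolute log2 difference over 12517 genes for each pair of mice given BALB/c cells (points), by the genotype of the pair, with the median of the pairs as a line. The 12 pairs across genotypes span 0.18 to 0.32, within the 0.19 to 0.35 of Rag2-only pairs except at the low end.

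The receptor gene itself lay lower in the Il4ra-deficient mice, without passing the test. Il4ra was 0.41, 0.92, 0.33 and 1.42 in Rag2-only mice 5700, 5702, 5703 and 6153, and -0.32, 0.07 and -0.22 in mice 4535, 5717 and 5719. Every Il4ra-deficient mouse lay below every Rag2-only mouse. The difference was -0.93 (SE 0.43, 95% interval -1.83 to -0.02, adjusted p = 1), or 1.90-fold. Within series 57 it was -0.63 (SE 0.52). Il13-deficient recipients of BALB/c cells, whose labels name no Il4ra deletion, had a similar mean (-0.09, against -0.16 in Il4ra-deficient mice). They differed from these same Rag2-only mice by -0.86 (SE 0.40, adjusted p = 0.233 with limma). A lower level was thus not seen in the Il4ra genotype alone. All Il13-deficient mice carry numbers of series 62, which no mouse of the other genotypes has. Here and below, their genotype and their series cannot be told apart. Recipients of B10.D2 cells, which are other mice, serve as a comparison below. One of the 4 Il4ra-deficient ones, mouse 5718, is labelled IL14Ra and was taken as Il4ra-deficient, so values without it are given too, a choice made after the data were seen. In these mice Il4ra lay between 1.69 and 3.27 in 5 Rag2-only animals and between 0.39 and 0.85 in 4 Il4ra-deficient ones, a difference of -1.47 (SE 0.38, adjusted p = 0.0738, or -1.40 and 0.217 without mouse 5718). Il4ra was read from 1 probe whose position relative to the deleted part of the gene is not known, and donor cells may carry the intact gene, so these levels neither check nor contradict the labelled genotype.

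Rag2, deleted in both groups, lay at 0.02 to 0.08 in 4 Rag2-only mice and at -0.03 and -0.02 in the 2 Il4ra-deficient mice with a value. The ligands gave ratios near 0. Il4 was 0.06, 0.08, 0.10 and 0.04 in Rag2-only mice and 0.09, 0.02 and 0.40 in Il4ra-deficient mice. Il13 was 0.23, 0.06, 0.36 and 0.10 against 0.10 in mouse 4535 and 0.82 in mouse 5719, with no value in mouse 5717. Whether either probe detected its transcript was not tested.

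For the other chains and signal carriers of the pathway, no difference was detected, and the intervals of the values used held none of 2-fold size. Il13ra1, the chain that pairs with IL-4Rα to bind IL-13, was 1.97, 2.10, 2.31 and 2.01 in Rag2-only mice and 2.12, 2.15 and 2.02 in Il4ra-deficient mice. The Il4ra-deficient mice sat inside the Rag2-only range, and the difference was -0.00 (95% interval -0.62 to 0.61), which its 2 probes gave with opposite signs. Stat6 was 0.37, 0.32, 0.49 and 0.03 against 0.42, -0.20 and 0.04 (difference -0.21, 95% interval -0.53 to 0.10), with overlapping groups. The kinases Jak1 (-0.12, 95% interval -0.58 to 0.35), Jak2 (-0.15, -0.57 to 0.27), Jak3 (-0.16, -0.66 to 0.34) and Tyk2 (0.17, -0.22 to 0.57), and the adaptor Irs1 (-0.24, -0.94 to 0.47), all had intervals that spanned 0. These values come from the most complete probes of each gene. Less complete probes gave -1.10 for Jak1 and -1.01 for Irs1, and the probes of Irs1, Jak2 and Stat6 disagreed in sign. Of 8 members of this list that were tested, 0 were called, 7 lay below 0 and 1 above, with a median of -0.15 against -0.01 over all genes. The median of this list in Il13-deficient recipients of BALB/c cells, against these same Rag2-only mice, was -0.39. Il13ra2, the decoy receptor of IL-13, was measured in 3 Rag2-only mice (0.68 to 1.62) and in 1 Il4ra-deficient mouse (1.44) and was not tested, nor were Il2rg, the common gamma chain, and the adaptor Irs2.

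Genes known to respond to IL-4 or IL-13 were lower on balance in Il4ra-deficient skin, led by Cish, but none passed. Of 20 tested, 0 were called, 14 lay below 0 and 6 above, and the median difference was -0.20. Il13-deficient recipients of BALB/c cells leaned farther from these same Rag2-only mice on this list (median -0.57). The mean of the 16 members measured in all 7 mice was 2.30, 2.00, 2.12 and 2.29 in Rag2-only mice and 1.93, 1.91 and 1.75 in Il4ra-deficient mice. These means did not overlap, as was the case for 4 of 38 lists with at least 5 such members (10.5%). The others were the receptor list and the interferon-gamma list, both lower, and the heat shock list, higher. The receptor list includes Il4ra itself, its 1 member whose groups did not overlap, and was not averaged without it. Without Cish, left out after its values had been seen, the response list had means of 1.92 to 2.24 and 1.75 to 1.90. For only 4 of the 20 genes did the 95% interval lie within -1 and 1, so 2-fold differences of most members were not resolved.

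Cish encodes a SOCS-family inhibitor of cytokine signalling that STAT factors, above all STAT5, induce. Its level was 3.25, 3.26, 3.67 and 3.14 in Rag2-only mice and 2.27, 2.62 and 1.69 in Il4ra-deficient mice. Every Il4ra-deficient mouse lay below every Rag2-only one, and the lowest was 5719. The difference of -1.14 (SE 0.22, 95% interval -1.60 to -0.68), or 2.20-fold, had the 2nd smallest p of all genes but an adjusted p of 0.289. It was -1.24 within series 57 and -0.89 without mouse 5719, and it passed in 1 of 22 refits, the one that weighted arrays by their quality (adjusted p = 0.00394). With B10.D2 cells Cish was 2.79 to 3.45 in Rag2-only and 2.61 to 3.02 in Il4ra-deficient mice, a difference of -0.30 (SE 0.19, adjusted p = 0.571). The genotype effects under the 2 donors differed by 0.84 (SE 0.29, adjusted p = 0.915), so a difference between donors was not shown.

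The Cish promoter is printed because Cish leads the response list and is a known target of STAT factors; the choice was made after its values were seen. The 300 bases come from RefSeq (GRCm38.p6, chr9:107296409-107296708, plus strand), 250 before and 50 after the annotated start of the gene, and capitals mark matches to TTCNNNGAA, a spacing that several STAT factors bind.
Cish: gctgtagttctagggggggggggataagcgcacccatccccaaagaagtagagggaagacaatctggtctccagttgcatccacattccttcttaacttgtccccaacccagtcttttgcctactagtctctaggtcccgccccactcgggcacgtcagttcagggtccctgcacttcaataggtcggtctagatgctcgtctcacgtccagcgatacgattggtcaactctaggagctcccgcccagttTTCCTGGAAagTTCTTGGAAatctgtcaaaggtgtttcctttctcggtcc
The 2 matches, TTCCTGGAA and TTCTTGGAA, lie in the 50 bases after the annotated start. This motif reads the same way on both strands, as does the motif preferred by STAT6, which has 1 more base between TTC and GAA. TTCNNNGAA occurs in 8.3% of 32851 promoters of this length and at least 2 times in 0.457%, and the STAT6 motif in 6.95%. Of the 12 response genes with a promoter in the table, 3 hold TTCNNNGAA and 2 the STAT6 motif, which Cish lacks. The windows of Il4ra, Mfsd2a and Marco hold neither. A match is a description of these letters, not a bound site.

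Cish's relatives were less far apart. Socs2, named after its values were seen, was 0.68, 0.71, 0.57 and 1.04 in Rag2-only mice and -0.13, 0.66 and -0.24 in Il4ra-deficient mice, and the groups overlapped through mouse 5717. The difference was -0.65 (SE 0.30, adjusted p = 1). Socs3 differed by -0.23 (95% interval -0.96 to 0.50) and was 0.11 without mouse 4535. Socs1 differed by -0.53 (95% interval -1.12 to 0.07) with no overlap between groups. Matk, a kinase of blood cells, was 0.03, -0.07, 0.42 and -0.38 against -1.03, -1.93 and -0.35, a difference of -1.11 (SE 0.39, adjusted p = 1) with overlap through mouse 5719, and its second probe differed by 0.02. The classical markers of alternatively activated macrophages, named here as textbook examples and not by size, gave no common direction. Arg1 differed by -0.10 (95% interval -0.98 to 0.78), Retnla by -0.26 (-1.05 to 0.53) and Mrc1 by 0.40 (-0.92 to 1.72). The chemokines of the list also pointed both ways, with Ccl17 at -0.46 (-1.41 to 0.50), the eotaxin Ccl11 at -0.04 (-1.05 to 0.97) and the eotaxin Ccl24 at 0.52 (-0.34 to 1.37).

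**Figure D2:**
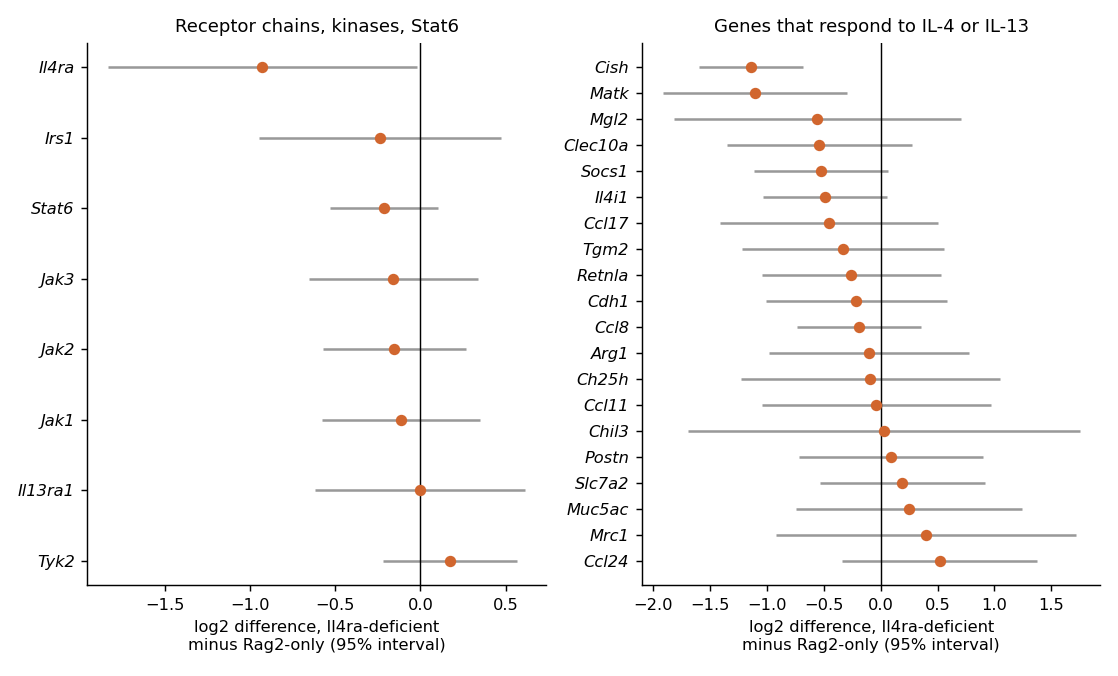
Log2 difference, Il4ra-deficient minus Rag2-only recipients of BALB/c cells, with its 95% interval from limma (lines), for the receptor list (left, 8 genes) and the response list (right, 20 genes). The intervals of Il4ra, Cish and Matk lie below 0, and all other intervals cross 0.

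Type 2 cytokines and their upstream signals had 3 members below and 5 above 0 of 8 tested, with 0 called and a median of 0.13. Il25, an epithelial inducer of type 2 responses, differed by 1.06 through a level of 3.10 in mouse 5719, against 0.42 in mouse 4535 and 0.41 to 1.25 in 3 Rag2-only mice. Il31ra, the IL-31 receptor chain, was 1.75 to 3.92 in Rag2-only and 1.89 to 3.38 in Il4ra-deficient mice. Among eosinophil markers 2 were tested and 0 called, and for Epx, the eosinophil peroxidase, a single Il4ra-deficient mouse had a value (-0.48), so eosinophils could not be assessed.

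Ccl2, a chemokine that attracts monocytes, lay far below the reference in both genotypes. This gene, named in the title of the study, was -3.10, -3.26, -3.35 and -3.15 in Rag2-only mice and -3.74, -3.45 and -3.46 in Il4ra-deficient mice. These ranges did not overlap, but the difference was no larger than its error, which rests on the spread of all 6 groups (-0.34, SE 0.34, adjusted p = 1). With only the 2 syngeneic groups in the limma fit, the SE was 0.14 and Ccl2 did not pass either (adjusted p = 0.994). With B10.D2 cells Ccl2 stood at 0.68 ± 0.35 (SD, n = 5) in Rag2-only and -0.72 ± 0.31 (SD, n = 4) in Il4ra-deficient mice, a difference of -1.40 (SE 0.30, adjusted p = 0.0306) that did not pass without mouse 5718 (-1.27, adjusted p = 0.123). The test of the genotype effects against each other gave -1.06 (SE 0.45, adjusted p = 0.998). Ccl7, a neighbour of Ccl2 in function, differed by -0.79 (SE 0.41, adjusted p = 1), or -0.49 without mouse 6153, and its relative Ccl12 by -0.60 (SE 0.56, adjusted p = 1), a value that was -0.05 without mouse 6153, where Ccl12 reached 1.94. Of 17 CC chemokines 15 lay below 0 and 2 above, with 0 called and a median of -0.19. Ccr2, which encodes the receptor for CCL2, had values in 4 Rag2-only mice (2.23 to 4.50) and in 1 Il4ra-deficient mouse (5.46).

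Marco, a scavenger receptor of macrophages, was the macrophage gene farthest apart. It stood at 2.10, 2.46, 2.47 and 1.81 in Rag2-only mice and at 0.81, -0.17 and 0.13 in Il4ra-deficient mice. The ratio -0.17 was also that of Tnni1 in mouse 5717, and 0.13 that of H2-Oa in mouse 5719. Whether Marco was detected in these mice was not tested. No mouse of one genotype reached the range of the other, and the difference of -1.95 (SE 0.51, 95% interval -3.02 to -0.89), or 3.87-fold, had an adjusted p of 1. It ran from -2.48 to -1.74 over 21 refits, with adjusted p between 0.117 and 1. In recipients of B10.D2 cells Marco was 4.42 to 5.85 in 5 Rag2-only mice and 0.49 to 3.06 in 4 Il4ra-deficient mice, a difference of -3.03 (SE 0.45) that passed (adjusted p = 0.00907), also without mouse 5718 (-2.62, adjusted p = 0.0332). Il13-deficient recipients of BALB/c cells differed from these same Rag2-only mice by -2.46 (adjusted p = 0.0384), in a comparison that called 0.283% of genes and shares these controls. Of 22 macrophage markers tested, 15 lay below and 7 above 0 with a median of -0.09 and 0 called. Fcgr1, a high-affinity IgG receptor, was 0.52, -0.52, -0.40 and 1.39 against -0.65, -1.09 and -0.86 (difference -1.11, SE 0.50, adjusted p = 1), with no overlap. The mean of macrophage markers was 2.05 to 2.37 in Rag2-only and 1.75 to 2.33 in Il4ra-deficient mice. In whole skin fewer cells of a type and less RNA per cell cannot be told apart.

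**Figure D3:**
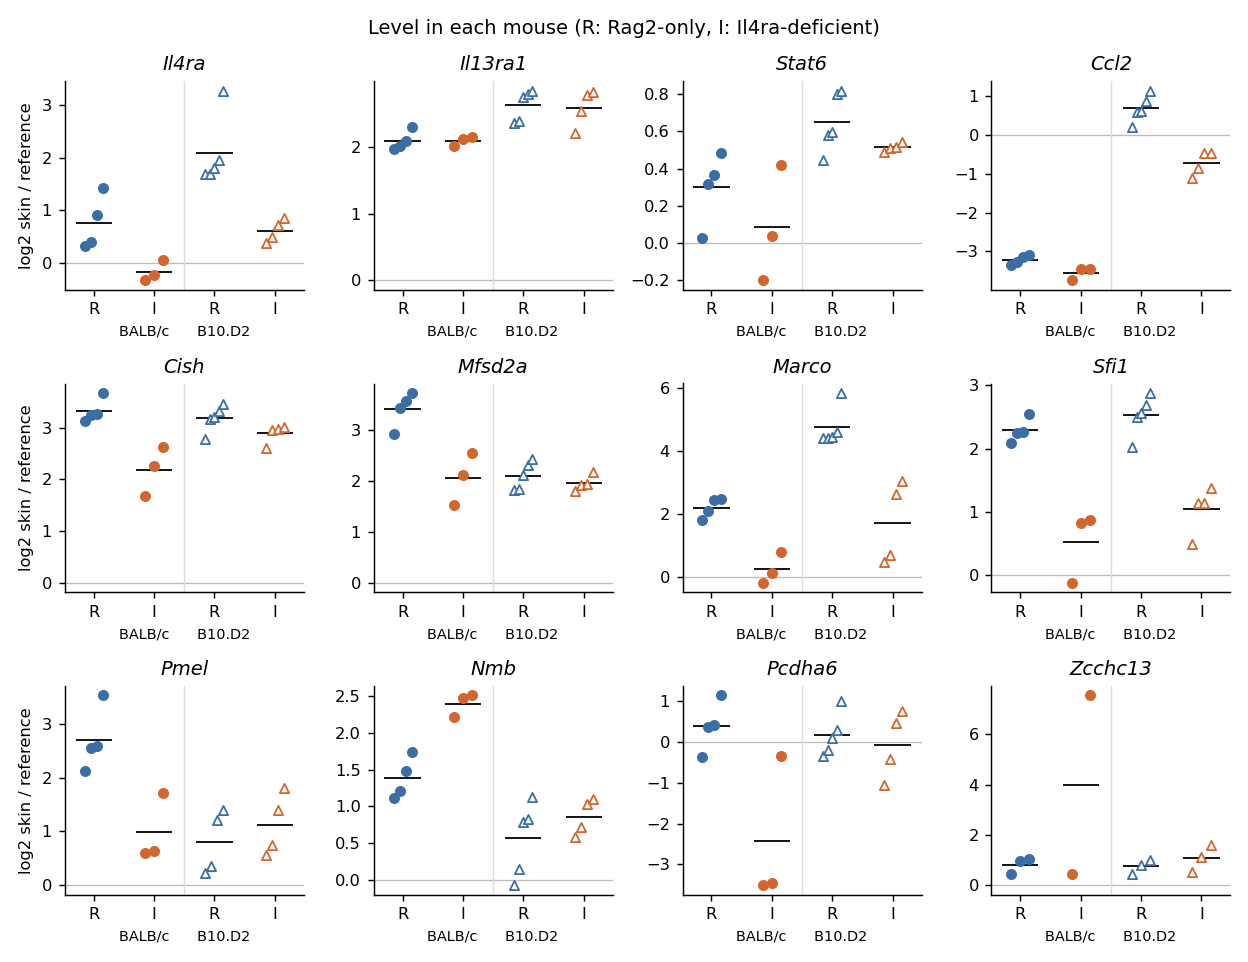
Level (log2 skin over reference) of 12 genes in each mouse with a value, Rag2-only (R, blue) and Il4ra-deficient (I, orange), given BALB/c cells (filled circles) or B10.D2 cells (open triangles), with group means as lines and an axis of its own for each gene. Il4ra, Ccl2, Cish, Mfsd2a, Marco, Sfi1, Pmel and Nmb do not overlap between genotypes with BALB/c cells, and Pcdha6 and Zcchc13 rest on 2 and 1 of the Il4ra-deficient mice.

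Because no gene was called, the 12 genes with the smallest p among those measured in all 7 mice are given as values, a choice made after the data were seen; Cish and Marco, described above, are among them. Their adjusted p ran from 0.235 to 1. In 11 of the 12, the groups did not overlap, against 5.48% of all genes measured in the 7 mice, but the p that chose them rests on the same values. Mfsd2a, a transporter of lysophospholipids that carry omega-3 fatty acids, had the smallest p. It was 3.74, 3.45, 3.57 and 2.93 in Rag2-only mice and 2.55, 2.13 and 1.54 in Il4ra-deficient mice, a difference of -1.35 (SE 0.24, 95% interval -1.85 to -0.85, adjusted p = 0.235). All 3 Il4ra-deficient mice lay below the lowest Rag2-only mouse. It passed in 3 refits, with arrays weighted (adjusted p = 0.00516), with arrays of a mouse as a random block (adjusted p = 0.0315) and within series 57 (-1.75, adjusted p = 0.0195). With B10.D2 cells Mfsd2a was 1.82 to 2.44 in Rag2-only and 1.82 to 2.17 in Il4ra-deficient mice, near the level of Il4ra-deficient mice given BALB/c cells. The genotype effects under the 2 donors differed by 1.21 (SE 0.32, adjusted p = 0.747), and by 1.396 with arrays weighted (adjusted p = 0.0387).

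Sfi1, which encodes a centrin-binding protein of the centrosome, was the gene of these 12 that also passed with B10.D2 cells besides Marco. It was 2.09, 2.55, 2.25 and 2.26 in Rag2-only mice and 0.87, -0.12 and 0.83 in Il4ra-deficient mice, a difference of -1.76 (SE 0.37, adjusted p = 0.444). In the other mice, given B10.D2 cells, it was 2.02 to 2.88 against 0.50 to 1.37, a difference of -1.49 (SE 0.33, adjusted p = 0.0367) that did not pass without mouse 5718 (-1.53, adjusted p = 0.0991). The groups did not overlap under either donor, and the difference of the effects was 0.27 (SE 0.50, adjusted p = 0.998). Its 3 probes all gave a lower value in Il4ra-deficient mice.

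Pmel, the fibril protein of pigment granules, was 2.58, 2.11, 2.56 and 3.53 in Rag2-only mice and 0.60, 0.63 and 1.71 in Il4ra-deficient mice (difference -1.71, SE 0.39, adjusted p = 0.782). BALB/c mice are albino, and of 8 pigment cell genes tested 5 lay below and 3 above 0, with Gpnmb, also a macrophage gene, at 0.71 (SE 0.37). Nmb, the peptide neuromedin B, was the one higher gene of the 12, at 1.48, 1.21, 1.74 and 1.11 in Rag2-only mice and 2.51, 2.22 and 2.47 in Il4ra-deficient mice (difference 1.01, SE 0.24, adjusted p = 0.782). Pcdha6, a clustered protocadherin whose relatives share much sequence, was near -3.5 in mice 4535 and 5717 but -0.33 in mouse 5719, inside the Rag2-only range of -0.37 to 1.14. Its difference was -2.82 (SE 0.59, adjusted p = 0.444).

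The remaining members of the 12 were lower in Il4ra-deficient mice. Slc27a3, of the fatty acid transport family, was 1.41 to 1.83 in Rag2-only and 0.28 to 0.94 in Il4ra-deficient mice. Tnfrsf4, the costimulatory receptor OX40, was 2.05 to 2.31 against 1.32 to 1.77. The zinc finger gene Zfp957 was -0.18 to 0.76 against -1.51 to -0.33, and Celf4, an RNA-binding protein, -1.57 to -0.64 against -2.08 to -1.69. In mouse 5717 the ratio of -1.51 was shared by Zfp957, Krt71 and Kdm5d, and whether Zfp957 was detected there was not tested. Lmna, the nuclear lamin A/C, differed least, at -0.47 to -0.30 against -0.89 to -0.68. Pyy, the gut peptide YY, was chosen because it passed when arrays were weighted (adjusted p = 0.0293). It was 2.503, 3.29, 3.95 and 1.68 in Rag2-only mice and 0.63, 1.19 and 0.15 in Il4ra-deficient mice, a difference of -2.20 (SE 0.60, adjusted p = 1). Il13-deficient recipients of BALB/c cells, set against these same Rag2-only mice, differed by -2.60 on Pyy (adjusted p = 0.0498 with limma). In that comparison Sfi1 differed by -0.92, Cish by -0.12, Mfsd2a by 0.06 and Pmel by 1.02, and none of these passed.

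Interferon-induced genes leaned lower in Il4ra-deficient skin, but the level of these genes also differed widely among Rag2-only mice. On the type I interferon list all 24 tested members lay below 0 (median -0.38) and 0 were called. Zbp1, a sensor of nucleic acids, differed by -0.85 (SE 0.38) and Oasl2, an oligoadenylate synthetase-like protein, by -0.83 (SE 0.36), each with an adjusted p of 1. Oasl2 was 1.31 in mouse 5700 and -0.27 to 0.08 in the other Rag2-only mice, and its difference was -0.47 without mouse 5700. A second probe of Oasl2, measured in 1 mouse of each genotype, gave -0.075. The list mean was 0.60 in mouse 5700, -0.43 in 5702, -0.24 in 5703 and 0.20 in 6153, against -0.32, -0.28 and -0.46 in the Il4ra-deficient mice. The Il4ra-deficient mice thus fell inside the Rag2-only range, except that 5719 lay just below it, and mice 5700 and 6153 stood above all others. With B10.D2 cells the median of the list was -0.03. Il13-deficient recipients of BALB/c cells leaned farther from these same Rag2-only mice (median -0.81), so a lean was also seen outside Il4ra-deficient skin. Those mice are all of series 62, which holds no Rag2-only mouse.

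On the interferon-gamma list 24 members lay below and 4 above 0 of 28 tested (median -0.34), with 0 called. Its mean was 1.01, 0.98, 0.73 and 0.68 in Rag2-only mice and 0.68, 0.35 and 0.34 in Il4ra-deficient mice, so the groups did not overlap but were almost in contact, between mouse 6153 and mouse 4535. Gbp5, a guanylate-binding protein, was 2.15, 2.80, 0.98 and 0.23 against 0.72, 0.49 and 0.91. Iigp1, an immunity-related GTPase, was 4.94, 4.17, 3.86 and 5.03 against 4.14, 3.49 and 3.39 (difference -0.83, SE 0.41, adjusted p = 1). Both genes overlapped between genotypes. MHC class II genes had a median of -0.38, with 8 of 9 below 0 and 0 called. H2-Aa, a chain of the class II molecule, was 5.51 to 5.86 in 3 Rag2-only mice and 5.73, 3.73 and 4.61 in Il4ra-deficient mice, and its 2 probes differed in sign (-0.99 and 1.29). H2-Oa, a part of the class II modulator H2-O, was 0.43 to 0.77 against 0.42, -0.76 and 0.13 (difference -0.73, SE 0.35, adjusted p = 1). With B10.D2 cells H2-Oa differed by -1.50 (SE 0.31, adjusted p = 0.0256 with limma), which did not pass without mouse 5718 (-1.31, adjusted p = 0.11). The class II list mean in mouse 6153 (1.94) was as low as in mouse 5717 (1.90). With B10.D2 cells the median difference was -0.27 on the interferon-gamma list and -0.38 on the class II list. Il13-deficient recipients of BALB/c cells had medians of -0.97 and -0.96 against these same Rag2-only mice.

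**Figure D4:**
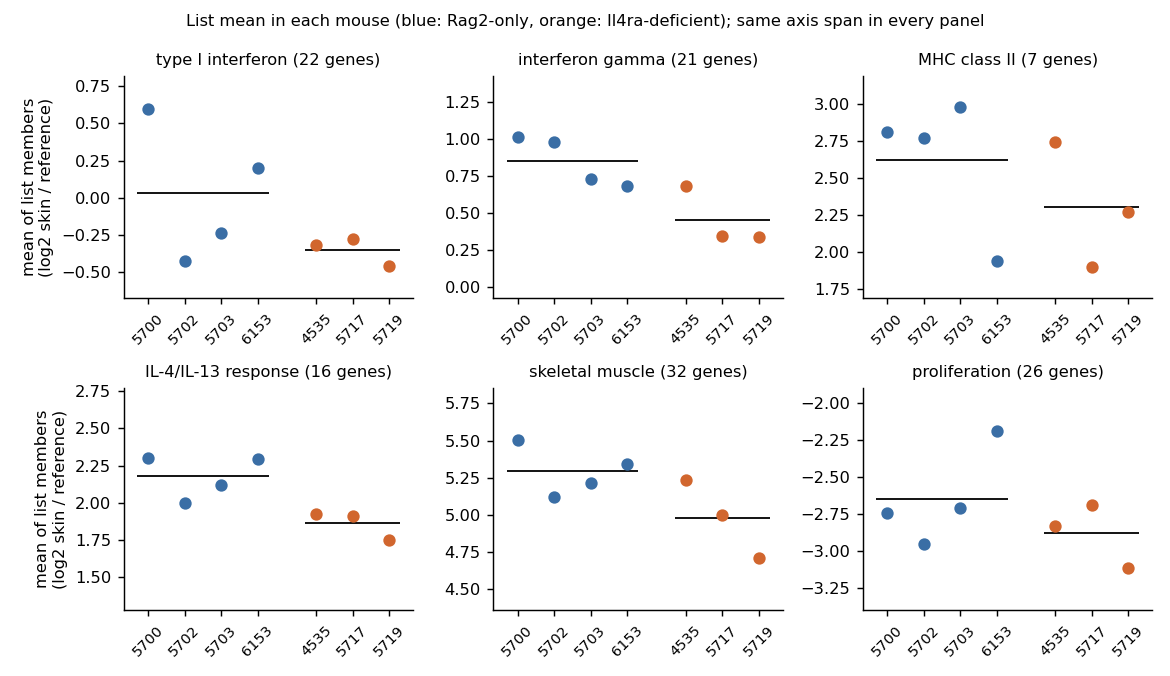
Mean level (log2 skin over reference) of list members measured in all 7 mice, by mouse, with group means as lines, for 6 lists on panels of equal span. Type I interferon genes were highest in Rag2-only mice 5700 and 6153, and the IL-4/IL-13 response list is the panel in which the groups are most clearly apart. Without Cish its nearest means were almost in contact, at 1.915 in Rag2-only mouse 5702 and 1.903 in Il4ra-deficient mouse 4535.

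Recipients form no T or B cells of their own, and markers of these cells lay below the reference on average in both genotypes. T cell markers had a list mean of -1.29 to -0.89 in Rag2-only and -1.46 to -1.004 in Il4ra-deficient mice, and of 14 tested 10 lay below and 4 above 0 (median -0.05). Cd3d, a chain of the T cell receptor complex, was 0.76, 0.20, 0.42 and 0.43 against 0.42, -0.36 and -0.11, and Cd8b1 was -0.22 to 0.58 in 3 Rag2-only and 0.12 to 0.72 in 2 Il4ra-deficient mice. B and plasma cell markers had list means of -2.40 to -2.15 and -2.51 to -2.28. The groups overlapped on both lists, and 0 members of either were called.

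Structural tissues gave small shifts that overlapped between mice. Skeletal muscle genes lay below 0 in 32 of 34 cases (median -0.32), with a list mean of 5.12 to 5.50 in Rag2-only and 4.71 to 5.24 in Il4ra-deficient mice and 0 called. Myh7, the slow myosin heavy chain, was 4.57, 4.07, 1.38 and -0.25 against 0.42, 2.12 and 2.76, and Tnni1, the slow troponin I, -0.25 to 1.16 against -1.09 to 0.14. Cell division genes lay below 0 in 24 of 26 cases (median -0.23), 0 were called, and mouse 6153 was highest of all 7 (list mean -2.19 against -3.11 to -2.69). The replication helicase subunits Mcm6 and Mcm2 differed by -0.74 (SE 0.34) and -0.42 (SE 0.32).

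Genes of the dermal matrix were evenly split, with 15 below and 13 above 0 of 28 (median -0.04), 0 called, and 23 intervals within -1 and 1. Col6a3, a collagen VI chain, was 1.14, 1.46, 0.93 and 2.13 in Rag2-only and 0.99, 1.11 and 0.89 in Il4ra-deficient mice, and Mfap5, a microfibril protein, 3.20 to 4.64 against 2.35 and 3.73. TGF-beta ligands and targets had 10 below and 13 above 0 (median 0.01). Mmp9, a gelatinase, was -1.37 to -1.11 against -2.01 to -1.73 (difference -0.62, SE 0.30, adjusted p = 1), and Mmp3, stromelysin, -0.41 to 0.82 against 0.87 to 1.09 (difference 0.68, SE 0.55).

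Fat cell genes had 6 members below and 10 above 0 (median 0.12) with 0 called. Lep, the fat hormone leptin, was 1.22, 3.38, 2.30 and 0.54 in Rag2-only mice and 6.25, 1.53 and 5.22 in Il4ra-deficient mice. Mice 4535 and 5719 stood above all others while 5717 lay within the Rag2-only range (difference 2.47, SE 1.01, adjusted p = 1). Lipe, hormone-sensitive lipase, was 2.48 to 2.66 in all mice of the Rag2-only group but 6153, where it was 0.23, and 2.35 to 2.74 in Il4ra-deficient mice. Cornified envelope genes had 25 below and 12 above 0 (median -0.20). Dsc1, a desmosomal cadherin of upper epidermis, was 6.16, 6.17 and 4.63 in 3 Rag2-only mice and 6.79 and 6.93 in 2 Il4ra-deficient mice, and Tgm3, a cross-linking enzyme, -0.33 to 0.89 against 0.42 and 1.42. Heat shock and protein stress genes had 2 members below and 15 above 0 (median 0.11), with 0 called and 16 of 17 intervals within -1 and 1. Their mean was 0.00073 to 0.10 in Rag2-only and 0.12 to 0.20 in Il4ra-deficient mice. Genes of stressed epidermis had 10 below and 7 above 0 (median -0.09). Defb3, an antimicrobial peptide, was 4.70 in mouse 5700 and 1.52 to 2.30 in the other Rag2-only mice, against 1.53 in 2 Il4ra-deficient mice. S100a8, a calprotectin subunit, was -1.47 to 0.94 against 0.29 to 1.70. Some hair keratins varied widely between mice. Krt71 of the inner root sheath ran from -1.51 to 3.84 in Il4ra-deficient mice alone, and Krt27 from 0.18 to 1.03 in 2 of them against 1.62 to 2.95 in 3 Rag2-only mice.

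**Figure D5:**
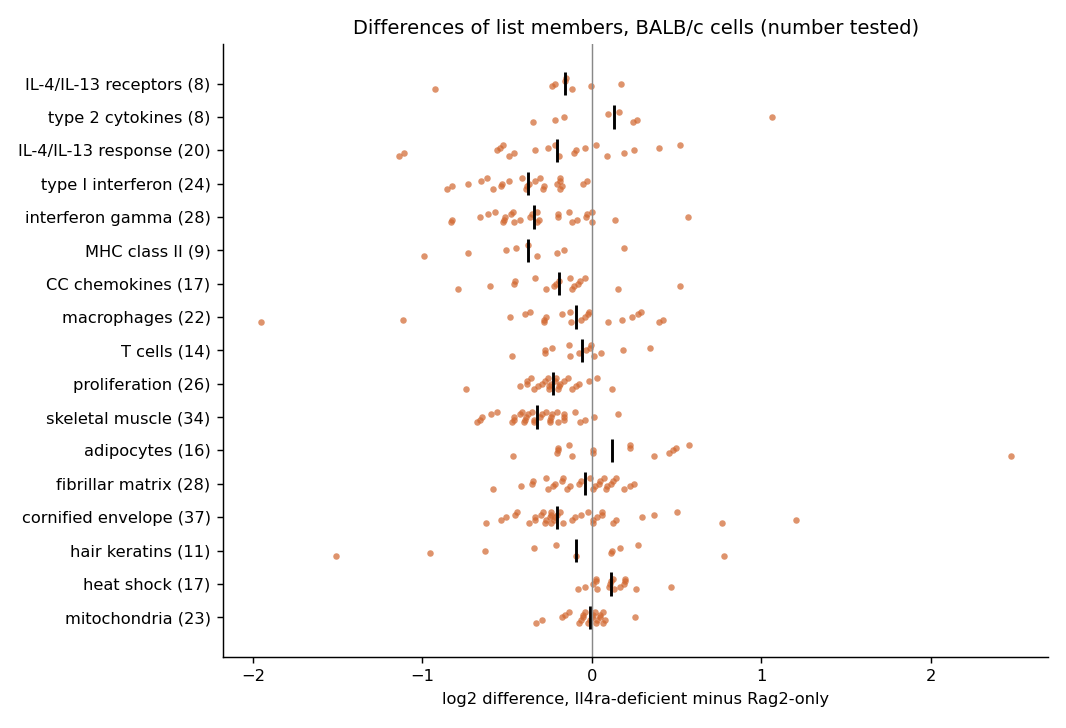
Log2 difference (Il4ra-deficient minus Rag2-only, BALB/c cells) of each tested member of 17 lists (points), with the list median as a bar and the number tested in brackets. All medians lie between -0.38 and 0.13, against -0.01 over all genes. Marco, Cish, Il4ra and Lep are the points farthest from 0 on their lists, as are Krt27 (-1.51), Dsc1 (1.205) and Il25 (1.06) on theirs.

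Clock and immediate-early genes, which move with the hour and the handling of tissue, were split. Bhlhe40, a clock-controlled repressor, was -1.02, -0.67, -0.64 and -1.28 in Rag2-only mice and -1.56, -1.59 and -1.65 in Il4ra-deficient mice, a difference of -0.70 (SE 0.24, adjusted p = 1). Per2, a core clock gene, was -1.22 to -0.11 against -0.16 to 0.34 (difference 0.79, SE 0.35). Of 16 clock genes 9 lay below and 7 above 0. Egr1, an early response factor, was -2.63 to -1.97 against -1.76 to -1.63, and Jun -0.36 to -0.07 against 0.06 to 0.36. Neither of these 2, picked as the largest differences of their list, overlapped. Of 20 immediate-early genes 9 lay below and 11 above 0 (median 0.02). With no overlap, 1 was lower and 2 were higher, next to 3.04% and 2.44% of all genes measured in the 7 mice. Their part in other differences was not tested.

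Genes beside Il4ra on its chromosome, which can carry passenger sequence from the strain in which a gene was deleted, gave 7 of 8 tested below 0 (median -0.15) and 0 called. Xpo6, an exportin, was -0.75 to -0.42 in Rag2-only and -0.92 to -0.76 in Il4ra-deficient mice, but its 2 probes disagreed in sign. Kdm8 (-0.42), Nsmce1 (-0.21), Il27 (-0.20), Sbk1 (-0.10), Gtf3c1 (-0.08), Il21r (-0.01) and D430042O09Rik (0.07) all had intervals across 0. The 4 probes of D430042O09Rik ran from -1.26 to 0.097. The Y-linked genes Eif2s3y, Kdm5d and Uty and the X-inactivation RNA Xist differed by -0.34 (95% interval -1.34 to 0.66), -0.15 (-1.27 to 0.98), 0.38 (-1.22 to 1.98) and 0.16 (-1.77 to 2.09). The fit includes Rag2-only mouse 5704, given B10.D2 cells, with an Xist of -4.66, against 0.23 to 1.55 in the 7 mice. With only the 2 syngeneic groups in the fit, the SE of Xist was 0.30 and not 0.93. Mouse 5719 was the lowest of the 7 on Eif2s3y (-4.24) and Kdm5d (-4.15), while its Xist (1.10) lay within the Rag2-only range. Its Uty (-1.39) was lowest of the 6 mice with a value, but the probes of Uty disagreed in sign, and mouse 6153 was the highest on Eif2s3y (-1.90) and Kdm5d (-1.16). The sex of the animals was not assigned.

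The genotype effect was then compared with that in recipients of B10.D2 cells, which share no mouse with the 7. Their number series were uneven too: series 45 held 2 Il4ra-deficient mice, series 61 held 3 Rag2-only mice, and series 57 held 2 of each. Whether the series contributed to what the 2 comparisons share was not tested. With B10.D2 cells limma called 119 of 14822 genes (0.803%), 79 of them lower (0.533%) in Il4ra-deficient mice. Without mouse 5718 it called 12, all among the 119, and 8 of them lower. Of those 79, with a median of -1.19 under B10.D2 cells, 55 lay below and 24 above 0 with BALB/c cells (median -0.11), next to 52.1% below 0 over all genes. With no overlap, 12 were lower and 1 higher, next to 3.04% and 2.44% of all genes measured in the 7 mice. Of the 40 higher genes (median 1.00), 31 lay above 0 and 9 below with BALB/c cells (median 0.19), and 3 were higher with no overlap, next to 2.44%. Over all genes the correlation of the 2 effects was 0.15, which describes genes within the same set of arrays and is not a test. In the response list the median was -0.20 with BALB/c and -0.22 with B10.D2 cells. The test of the difference between the effects called 0 genes (0%) with limma, with 728 at an unadjusted p under 0.05 (4.91%), so no gene was shown to depend on Il4ra in one setting and not in the other by this fit. That count was not stable: weighting arrays by quality called 21 genes, Mfsd2a among them, and leaving out mouse 5719 called 3.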

How the data were processed

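Skin RNA of 24 mice in 6 groups was measured on 28 Agilent 2-colour arrays, with skin in Cy3 and a pooled mouse cell line reference in Cy5 per the labels. Per the labels' protocols RNA was isolated with Trizol, cleaned on columns and amplified with a low-input kit. The deposited values were read as log2 ratios that the authors had normalized within arrays; of the scanner software and the way of normalizing, the sources used here give nothing, so the within-array step is itself a reading of array medians near 0. They ran as reference over skin, judged from the dyes and the epidermal and cell line genes, so the sign was turned. An exact 0 was treated as not measured, a reading of the values.

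Of 41174 probes, 32664 had 1 gene name, 45 several and 8465 none. Where several probes named a gene, those missing in the same mice formed a set, and the set with the most mice was averaged, with sets present in at least 2 mice of every group taken first; this order was chosen because it gave the 14822 tested genes, of 19532 named, of an earlier description of these data. Arrays of a mouse were averaged. limma 3.58.1 in R 4.3.3 (lmFit, eBayes, two-sided, Benjamini-Hochberg over all tested genes, threshold 0.05) fitted all 6 groups together, with prior degrees of freedom 2.97 and prior variance 0.0779; the script was tested on simulated data. The number of arrays limits the precision. Each animal was 1 replicate, and no mouse number is shared by groups.

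Members and gene lists were chosen with earlier results of these data known. Named genes were the receptor list, Rag2, Il4, Il13, up to 2 members with the largest difference of a described list, all measured neighbours of Il4ra and sex-linked genes; genes named after their values were seen are marked so, and of other lists no member is named. Promoters were searched with Python 3.11. The log base window of 0.0015 was narrowed after the window of 0.0051 had not separated the bases.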

Additional observations from a re-analysis of the deposited data

Results flagged for a closer look

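Among the 4 Rag2-only recipients of BALB/c cells, 5 of 66 named genes had 1 mouse far from the other 3, by Dixon's criterion at the 95% level. In mouse 6153, the Y-linked Eif2s3y was high (-1.90, others -3.53 to -3.36), and Il27 (-0.43, others 0.10 to 0.13), Lipe (0.23, others 2.48 to 2.66) and Slc27a3 (1.41, others 1.77 to 1.83) were low. In mouse 5700, Mfap5 was high (4.64, others 3.20 to 3.41). Chance gives about 1 in 20 such cases, and over all 13114 genes measured in these 4 mice there were 707 (5.39%). Mouse 6153 held 4 of the 5, but its share of the 707 was not counted, so this is not read as a trait of the named genes.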

How the results depend on the processing

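No paired analysis was possible because each mouse number belongs to 1 group, so no number pairs mice across genotypes. Blocks of another kind were fitted: the number series (0 calls) and the arrays of a mouse. The count of genes called between genotypes was 0 in 18 of 22 alternatives, with 245 to 1149 genes at an unadjusted p under 0.05. It was 1 with the mouse as a random block over its arrays and 1 within number series 57 (Mfsd2a in both), and 3 with arrays weighted (Cish, Mfsd2a and Pyy). Leaving out 1 mouse gave 0 to 3 calls. The 3 came without mouse 5719 and were Pcdha6 (-3.87, adjusted p = 0.000648 with limma), Tbx5 (3.002, adjusted p = 0.0237) and Zcchc13 (6.75, adjusted p = 0.000648). Tbx5 and Zcchc13 then rest on mouse 4535 alone, which is assumed to vary like the other groups. The difference of the genotype effects between donors had 0 calls in 19 of 21 alternatives, 21 with arrays weighted and 0 to 3 without 1 mouse, and the fit on the syngeneic mice alone cannot give it. The causes were not tested.

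Of 76 named genes, 54 kept their sign throughout and 22 turned in 43 cases. None of these 22 was called with all mice, and Tbx5 and Zcchc13 were called without mouse 5719. Keeping exact 0 gave D430042O09Rik -0.16, H2-Aa 0.049 and Krt71 0.13. The median of all probes gave D430042O09Rik -0.16 and Xpo6 0.21. Weighted arrays gave D430042O09Rik -0.20. Within series 57, D430042O09Rik was -0.058, Jak1 0.0026, Lipe -0.042, Socs3 0.0605 and Zcchc13 -0.56, and with the series as a block Il13ra1 was 0.083. With 1 array per mouse, Il13ra1 was 0.047, Il21r 0.018, Jak3 0.0041 and Kdm5d 0.16. Quantile normalization gave Il21r 0.026 and centring 0.0051. Dropping values shared by 30 probes gave Kdm5d 0.39 and Lipe -0.015.

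Leaving out 1 mouse gave ranges across 0 for 18 genes: D430042O09Rik -0.16 to 0.21, Eif2s3y -0.69 to 0.087, Gtf3c1 -0.19 to 0.041, Il13 -0.093 to 0.63, Il13ra1 -0.043 to 0.068, Il21r -0.14 to 0.17, Il25 -0.28 to 2.40, Il31ra -0.78 to 0.0077, Il4 -0.016 to 0.17, Kdm5d -0.62 to 0.71, Krt71 -1.96 to 0.72, Lipe -0.015 to 0.79, Mfap5 -1.27 to 0.11, Myh7 -1.57 to 0.031, Socs3 -0.48 to 0.11, Tbx5 -0.16 to 3.002, Xist -0.034 to 0.41 and Zcchc13 -0.37 to 6.75. Of 45 named genes with a difference of at least 0.5, 22 moved by over 1.5 times when 1 mouse was left out; all 22 had an adjusted p of 1. Leaving out mouse 5718, a comparison animal with a doubtful label, gave 0 calls for both counts. With 3 and 4 animals and no spot intensities, differences under about 2-fold and dim genes are the least certain.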

Other observations

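Several genes of type 2 immunity had values in too few mice to be tested. Clca1, a secreted epithelial protein that IL-13 induces in airway, was 2.76, 3.41, 3.91 and 2.01 in Rag2-only mice and 2.55 in mouse 5719, with no value in the other Il4ra-deficient mice. Cd209a, a lectin of dendritic cells, was 1.31, 1.05, 0.80 and -0.25 in Rag2-only mice and -0.31 and 2.22 in mice 4535 and 5719. Il5, the eosinophil growth factor, had a value in mice 4535 (0.42) and 5719 (0.79) and in no Rag2-only mouse.

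Tbx5, a T-box transcription factor, was 0.01 to 0.76 in 3 Rag2-only mice, 3.34 in mouse 4535 and 0.18 in mouse 5719. Zcchc13, a zinc finger gene, was 0.43 to 1.03 in 3 Rag2-only mice, 7.55 in mouse 4535 and 0.43 in mouse 5719. Both were named after their values were seen, and a single mouse was high in each.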
